A study of Mus musculus with 9 samples.

Results

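The genes described here are 8 secreted or membrane-bound antagonists of bone morphogenetic proteins (BMPs) and activins, together with the ligand gene *Gdf10*. They are *Grem1*, *Nog*, *Chrd*, *Chrdl1*, *Fst*, *Fstl1*, *Fstl3*, *Bambi* and *Gdf10*, chosen by name from the 55416 genes of the deposited table, and each of the 9 was found under 1 Ensembl identifier. *Grem1* and *Gdf10* had already been seen in these libraries to be low with TGF-β1 and higher with PFI-3, so the values of the 9 genes are given as a description, without p-values. The RNA-Seq data came from cultured mouse AdvSca1-SM cells, resident vascular progenitors of smooth muscle origin from aorta and carotid artery, in 3 groups of 3 libraries. The Stem group received vehicle, the TGF-β group received 5 ng/mL TGF-β1, and the Both group received 5 ng/mL TGF-β1 with 50 μM PFI-3, a bromodomain inhibitor directed at Brg1, the ATPase of a chromatin remodeling complex. Treatment lasted 72 hours, and cells of every group were given 0.1% DMSO. The cells had been sorted from pooled SM22α-Cre-YFP mice and subcultured, so that the replicates do not stand for single animals, and p-values measure the spread between these cultures. The study's methods describe serum-rich stem cell medium with growth factors for Stem and low-serum DMEM for the stimulated cells, and the contributions of medium and TGF-β1 to a difference between Stem and the other groups cannot be told apart.

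BMPs, growth and differentiation factors (GDFs) and activins are secreted dimers of the TGF-β superfamily that assemble type I and type II receptors into an active kinase complex, which phosphorylates Smad proteins. Gremlin, noggin and the chordins trap BMPs outside the cell, follistatin and follistatin-like 3 trap activins, and BAMBI is a membrane pseudoreceptor that lacks the kinase domain. *Gdf10*, also called BMP3b, encodes a ligand that is most closely related to BMP3.

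Library totals ran from 35686291 to 47741128 counts, and 14879 genes passed the filter on low counts. The biological coefficient of variation between replicates was 6.13%. One protocol label speaks of hepatic tissue, but 0 of 6 hepatocyte genes exceeded 3 counts in any library, and their summed counts lay between 0 and 3. The 4 adventitial progenitor markers summed to 48214 to 54084 counts in Stem, 6151 to 6637 in TGF-β and 6873 to 8245 in Both. *Pdgfra* made up most of this sum, with 40833 to 44573 raw counts in Stem. Its log2 fold change from TGF-β to Both was 0.20, while those of *Ly6a*, *Cd34* and *Scara5* were -0.36, -0.62 and -1.18. Of these, only *Scara5* passed the threshold. The 5 smooth muscle genes summed to 9304 to 12243, 22087 to 23007 and 18306 to 19716. The smooth muscle list went both ways between Stem and TGF-β, since *Acta2* and *Tagln* were 2.32- and 2.67-fold higher and *Myh11* 2.99-fold lower past the threshold, while *Cnn1* and *Smtn* had log2 fold changes of -0.18 and -0.06 and did not pass. Endothelial genes (5 of 5 above 3 counts in some library) summed to 53 to 78 counts over all libraries, but this sum held opposite changes. *Kdr* had 0, 0 and 2 raw counts in Stem, 21, 25 and 31 in TGF-β and 34, 32 and 24 in Both, whereas *Tek* had 42, 50 and 36, 14, 18 and 22, and 18, 23 and 16. Of 5 leukocyte genes 1 exceeded 3 counts, and the list summed to 1 to 7 counts in Stem, 12 to 17 in TGF-β and 12 to 22 in Both. The progenitor, smooth muscle and leukocyte sums and single endothelial genes therefore differed between Stem and the other groups together with the genes below, and their part in the results was not tested. In bulk libraries, fewer cells of a type and less RNA per cell cannot be told apart.

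The 3 genes with the widest differences between Stem and TGF-β were *Gdf10*, *Grem1* and *Fstl3*. Of the 9 genes, 5 had an entry in the RefSeq promoter table (GRCm38.p6), and the 250 bases upstream of the annotated start are shown for these 3 because *Gdf10* and *Grem1* were lower and *Fstl3* higher with TGF-β1. Capitals mark the Smad-binding box CAGAC, the GC-rich Smad motif GGCGCC and the TATA box TATAAA, or their reverse complements, all read on the gene's strand. The first window lies at chr2:113758649-113758898 on the minus strand, the second at chr14:33923337-33923586 on the plus strand and the third at chr10:79777024-79777273 on the plus strand.
Grem1: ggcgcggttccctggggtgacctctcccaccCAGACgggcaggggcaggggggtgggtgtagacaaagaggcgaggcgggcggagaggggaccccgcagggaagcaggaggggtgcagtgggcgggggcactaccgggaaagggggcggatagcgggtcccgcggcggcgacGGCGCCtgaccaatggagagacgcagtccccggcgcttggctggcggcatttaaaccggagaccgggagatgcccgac
Gdf10: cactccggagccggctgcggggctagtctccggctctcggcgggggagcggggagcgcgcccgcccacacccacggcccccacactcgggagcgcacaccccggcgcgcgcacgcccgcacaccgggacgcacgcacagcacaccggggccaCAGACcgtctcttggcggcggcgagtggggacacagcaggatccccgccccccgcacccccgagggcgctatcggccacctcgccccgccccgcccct
Fstl3: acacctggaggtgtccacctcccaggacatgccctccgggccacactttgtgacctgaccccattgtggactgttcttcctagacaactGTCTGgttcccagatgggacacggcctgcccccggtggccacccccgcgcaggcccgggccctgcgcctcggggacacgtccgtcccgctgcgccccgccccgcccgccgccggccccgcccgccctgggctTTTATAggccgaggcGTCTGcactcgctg

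The *Grem1* window held 1 CAGAC, with its first base at -219 from the start, and 1 GGCGCC at -78. The *Gdf10* window held 1 CAGAC at -98 and none of the other motifs. *Fstl3* had 2 copies of CAGAC, at -161 and -14, and a TATAAA at -29, all as reverse complements on the gene's strand. The AP-1 motif TGAGTCA was searched as well and had 0 matches in the 3 windows. Over 27025 promoters of the same length, searched on both strands, CAGAC was present in 42.1%, GGCGCC in 9.54%, TGAGTCA in 4.43% and TATAAA in 13%. CAGAC is thus a common string at this length, and a match describes letters, not binding. GC content was 72% for *Grem1*, 78.8% for *Gdf10* and 71.2% for *Fstl3*.

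*Grem1* and *Gdf10* were lower in TGF-β than in Stem and lay between these groups in Both, whereas *Fstl3* was higher in TGF-β than in Stem and overlapped between TGF-β and Both. Values are normalized counts (scaled by TMM to a library of average size), on which scale 3 raw counts correspond to between 2.63 and 3.26. *Grem1* (ENSMUSG00000074934), the gremlin that binds BMP2 and BMP4, had 96702, 77827 and 88866 normalized counts in the Stem libraries, 10414, 9083 and 10335 in TGF-β, and 21571, 18574 and 21167 in Both. All 3 groups were apart, with Stem highest, TGF-β lowest and Both between them. The means were 87798 ± 9483, 9944 ± 747 and 20437 ± 1626 (SD, n = 3 each). The log2 fold change of *Grem1* was -3.14 (standard error 0.0895) from Stem to TGF-β, a level 8.83-fold lower. From TGF-β to Both it was 1.04 (standard error 0.0837), a level 2.06-fold higher, and this comparison shares the TGF-β libraries with the first. Both remained 4.30-fold below Stem, at -2.10 (standard error 0.0857).

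*Gdf10* (ENSMUSG00000021943) had 3579, 3084 and 3582 normalized counts in the Stem libraries, 115.5, 66.9 and 86.9 in TGF-β, and 229.6, 184.6 and 223.8 in Both. The order was that of *Grem1*, with no overlap between any pair of groups. Mean values were 3415 ± 287, 89.8 ± 24.4 and 213 ± 24.5 (SD, n = 3 each). The log2 fold change of *Gdf10* was -5.25 (standard error 0.132) from Stem to TGF-β, 1.25 (standard error 0.16) from TGF-β to Both and -4.00 (standard error 0.115) from Stem to Both. These are levels 38.2-fold lower, 2.39-fold higher and 16.0-fold lower. In each group, the replicate 2 library was the lowest of the 3 for both *Grem1* and *Gdf10*.

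**Figure D1:**
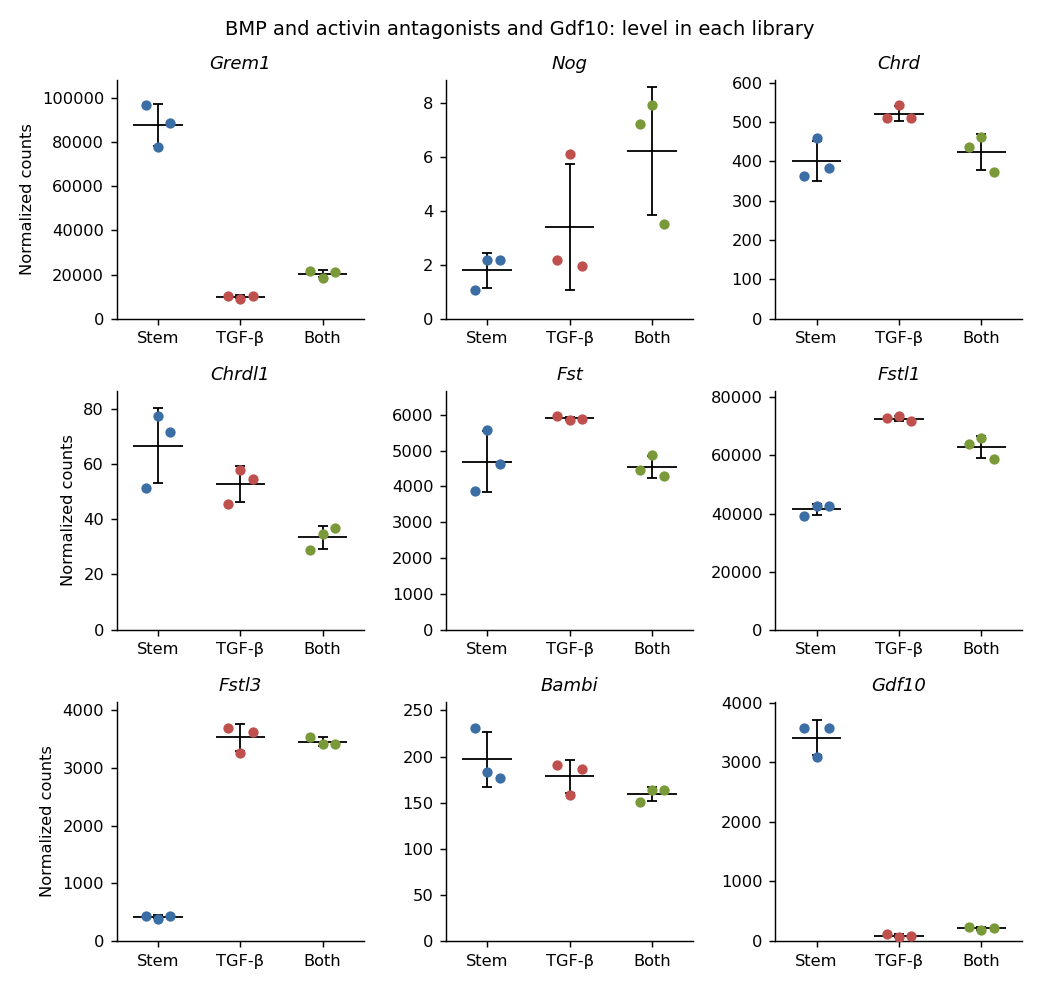
Normalized counts of the 9 genes in each library, with 1 panel per gene, a linear vertical axis that starts at 0, points for the 3 libraries of Stem, TGF-β and Both, and lines for the mean and SD. *Grem1* and *Gdf10* are highest in Stem and lowest in TGF-β, *Fstl3* is low only in Stem among the 3 groups, and *Nog* lies within a few counts of 0.

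*Fstl3* (ENSMUSG00000020325) encodes a follistatin relative that binds activins. It had 437.6, 387.9 and 436 normalized counts in the Stem libraries, 3702, 3261 and 3630 in TGF-β, and 3543, 3412 and 3412 in Both. Stem lay below every other library, and the TGF-β and Both ranges overlapped. The means were 420.5 ± 28.2, 3531 ± 237 and 3456 ± 75.6 (SD, n = 3 each). From Stem to TGF-β the log2 fold change of *Fstl3* was 3.07 (standard error 0.063), from TGF-β to Both -0.03 (standard error 0.0533) and from Stem to Both 3.04 (standard error 0.0629). The level with TGF-β1 was thus 8.39-fold that of Stem, and 8.21-fold with PFI-3 as well.

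The other follistatin-type genes differed by less. *Fst* (ENSMUSG00000021765), which encodes follistatin, had 3879, 5571 and 4630 normalized counts in the Stem libraries, 5952, 5866 and 5881 in TGF-β, and 4472, 4879 and 4283 in Both. TGF-β lay above both other groups, and Stem and Both overlapped. The log2 fold change of *Fst* was 0.33 (standard error 0.0985) from Stem to TGF-β and -0.38 (standard error 0.0983) from TGF-β to Both, and Stem and Both differed by -0.05 (standard error 0.0987). *Fstl1* (ENSMUSG00000022816), a secreted glycoprotein with a follistatin-like domain, had 39210, 42673 and 42546 normalized counts in the Stem libraries, 72880, 73418 and 71845 in TGF-β, and 63831, 66019 and 58615 in Both. The 3 groups were apart, with TGF-β highest. Its log2 fold change was 0.81 (standard error 0.0512) from Stem to TGF-β, -0.21 (standard error 0.0509) from TGF-β to Both and 0.60 (standard error 0.0511) from Stem to Both.

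Among the chordins, *Chrd* (ENSMUSG00000006958) had 363.3, 459.6 and 383 normalized counts in the Stem libraries, 510.4, 542.6 and 510.6 in TGF-β, and 435.8, 461 and 372.1 in Both. As for *Fst*, TGF-β was the highest group and Stem and Both overlapped, with log2 fold changes of *Chrd* of 0.38 (standard error 0.0986) from Stem to TGF-β and -0.30 (standard error 0.0969) from TGF-β to Both. Between Stem and Both it was 0.07 (standard error 0.0994). *Chrdl1* (ENSMUSG00000031283), chordin-like 1, had 51.3, 77.2 and 71.4 normalized counts in the Stem libraries, 45.3, 57.8 and 54.7 in TGF-β, and 28.8, 34.6 and 36.9 in Both. Both was below every library of the other groups, which overlapped each other. The log2 fold change of *Chrdl1* was -0.33 (standard error 0.186) from Stem to TGF-β, -0.66 (standard error 0.202) from TGF-β to Both and -0.99 (standard error 0.196) from Stem to Both, the latter just inside 2-fold.

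*Bambi* (ENSMUSG00000024232) had 231.4, 183.6 and 176.3 normalized counts in the Stem libraries, 191, 158.2 and 186.5 in TGF-β, and 150.4, 163.8 and 164.1 in Both. Adjacent groups overlapped and only Stem and Both were apart, with log2 fold changes of *Bambi* of -0.14 (standard error 0.121), -0.16 (standard error 0.122) and, from Stem to Both, -0.31 (standard error 0.121). *Nog* (ENSMUSG00000048616), which encodes noggin, had raw counts of 1, 2 and 2 in Stem, 2, 6 and 2 in TGF-β, and 8, 8 and 4 in Both. Every Stem library was at or under the floor of 3 counts, the gene did not pass the filter on low counts, and no fold change is given. Of the 9 loci, 3 overlap a gene on the opposite strand in the GENCODE annotation, and the strand setting of the counting is not given in the sources used here. These partners had 3 to 14 raw counts in a library for *Prss57* at *Fstl3*, 1 to 11 for *Thpo* at *Chrd*, and 0 to 3 for the antisense gene *Gm47040* at *Fst*.

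With the threshold of an adjusted p of 0.05 from edgeR's quasi-likelihood test and a 2-fold change, 3 of the 8 genes tested passed between Stem and TGF-β (*Fstl3* higher, *Grem1* and *Gdf10* lower), where 25.1% of all genes tested passed, 10.6% as higher and 14.5% as lower. Between TGF-β and Both, 2 of the 8 passed, both higher (*Grem1* and *Gdf10*), where 0.632% of all genes passed in either direction and 0.161% passed as higher and 0.470% as lower. Between Stem and Both, 3 of the 8 passed (*Fstl3* higher, *Grem1* and *Gdf10* lower), where 22.8% of all genes passed, 9.55% as higher and 13.2% as lower. The groups did not overlap in 6 of the 8 in each comparison, beside 76.8% of all genes tested between Stem and TGF-β, 32.7% between TGF-β and Both and 74.7% between Stem and Both. Because the genes were chosen with these comparisons known, nothing is read from the counts. At an adjusted p alone, 6, 4 and 6 of the 8 passed, beside 75.0%, 8.92% and 73.3% of all genes tested. The second count rested in part on single libraries for *Grem1*, which is close to 2-fold. Its log2 fold change from TGF-β to Both ran from 0.98 to 1.10 with 1 library left out, and 1 gene passed without TGF-β replicate 2 or without Both replicate 1. That of *Gdf10* ran from 1.08 to 1.47.

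**Figure D2:**
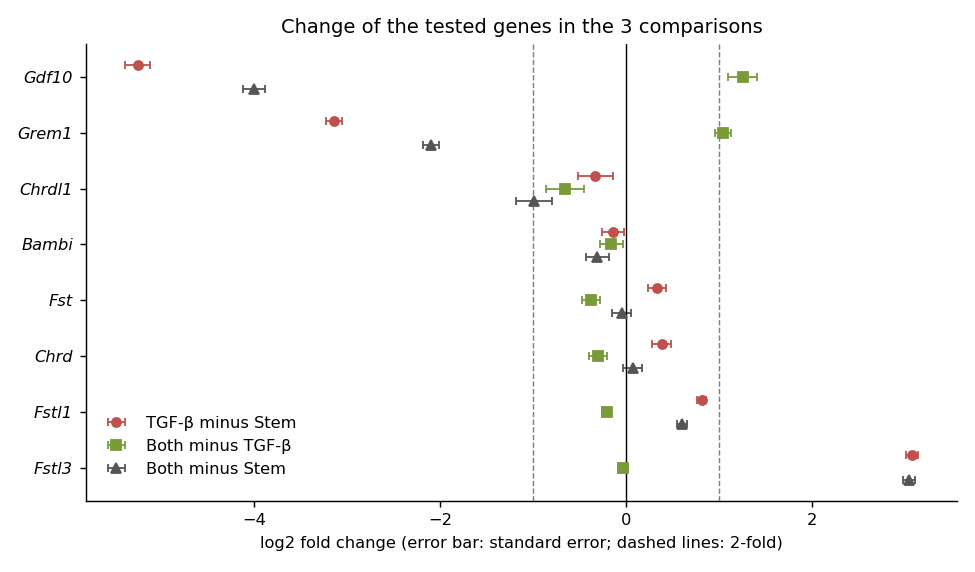
Log2 fold change with its standard error for the 8 genes tested, in each of the 3 comparisons. Between Stem and TGF-β the values run from -5.25 for *Gdf10* to 3.07 for *Fstl3*, and between TGF-β and Both from -0.66 for *Chrdl1* to 1.25 for *Gdf10*.

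To compare genes with each other, levels were set per length, as TMM-scaled CPM (counts brought to a common library size) divided by the kilobases of the longest annotated transcript. On this scale the mean level in Stem was 513.9 for *Grem1*, 265.8 for *Fstl1*, 39.0 for *Fst*, 15.9 for *Gdf10*, 5.22 for *Fstl3*, 2.22 for *Chrd*, 0.943 for *Bambi*, 0.395 for *Chrdl1* and 0.0257 for *Nog*, with no overlap between neighbours in this order. In TGF-β the order was *Fstl1* at 466, *Grem1* at 58.2, *Fst* at 49.0, *Fstl3* at 43.9, *Chrd* at 2.87, *Bambi* at 0.855, *Gdf10* at 0.418, *Chrdl1* at 0.312 and *Nog* at 0.0487. *Gdf10* and *Chrdl1* were the only neighbours whose libraries overlapped there. In Both, *Fstl1* was at 402.6, *Grem1* at 119.6, *Fstl3* at 42.9, *Fst* at 37.8, *Chrd* at 2.33, *Gdf10* at 0.991, *Bambi* at 0.763, *Chrdl1* at 0.198 and *Nog* at 0.0889, again without overlap of neighbours on this length. The rank of *Gdf10* was thus 4 of 9 in Stem, 7 with TGF-β1 alone and 6 with PFI-3 added. The order at the top depends on the length used. With the median transcript length in place of the longest, the level of *Fstl1* in Stem was 1595 and exceeded that of *Grem1*, which stayed at 513.9, and in TGF-β the level of *Fst* was 96.7 and exceeded that of *Grem1*. In Both, *Fst* at 74.5 then exceeded *Fstl3* at 54.2, so the order of these genes in Both is not firm either.

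The 7 secreted antagonists are all of the 9 genes but *Bambi* and *Gdf10*, and the groups differed in which gene made up their summed level. *Grem1* made up 66.0%, 58.2% and 62.0% of it in the Stem libraries, 9.73%, 8.63% and 9.79% in TGF-β, and 20.4%, 17.6% and 21.4% in Both. *Fstl1* made up 29.3%, 34.9% and 32.5% in Stem, 74.5%, 76.3% and 74.5% in TGF-β, and 66.1%, 68.5% and 64.8% in Both. The summed level itself was 857.3, 783.2 and 839.3 CPM per kilobase in Stem, 626.6, 616.3 and 618 in TGF-β, and 619.2, 617.6 and 579.8 in Both. With the longest transcript length, *Grem1* was therefore the larger share in Stem and *Fstl1* in the other groups, while the TGF-β and Both sums overlapped. With the median transcript length, *Fstl1* made up 70.2% to 74.7% of the sum in Stem as well. The Stem mean of *Fstl1* was then 1595, beside 2796 with TGF-β1 alone and 2415 with PFI-3 added. On that length Stem had the lowest sum instead of the highest. The direction of the summed level between Stem and the other groups thus depends on the length used.

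**Figure D3:**
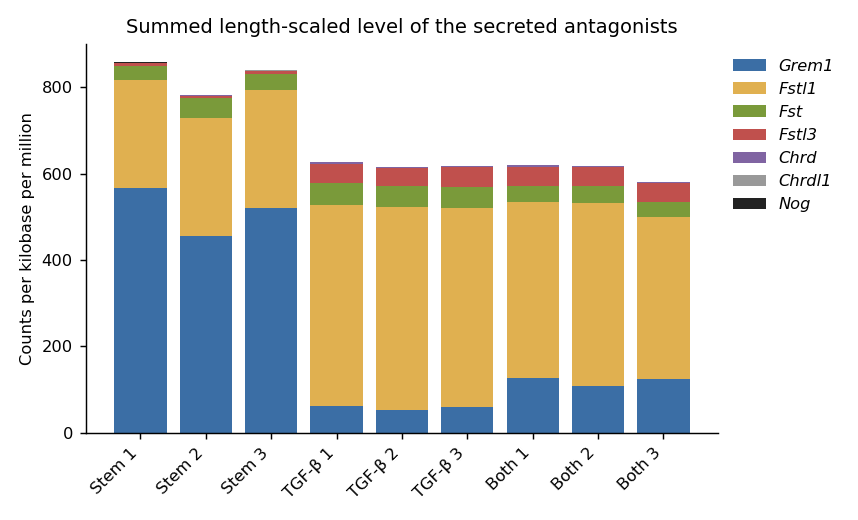
Summed level of the 7 secreted antagonists in each library (counts per kilobase of longest transcript, scaled by library size), stacked by gene on a linear axis that starts at 0. *Grem1* fills most of the Stem bars, and *Fstl1* fills most of the TGF-β and Both bars.

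Among 21 other BMP and activin antagonists, 18 were tested, of which 1 rose and 9 fell between Stem and TGF-β. That is 55.6%, beside 25.1% of all genes tested, with a median log2 fold change of -1.03 beside 0 for all genes. This list and the pathway lists below were chosen with earlier results of these data known. Their shares and adjusted p-values are therefore given as a description. *Bmper*, a BMP-binding protein with chordin-like domains, fell by 1.58 on the log2 scale (adjusted p = 3.19e-12 from edgeR's test). *Smoc2*, a matricellular protein, fell by 1.14 (adjusted p = 7.65e-11 from edgeR's test), and *Htra3*, a secreted serine protease, fell by 1.78 (adjusted p = 1.54e-08 from edgeR's test).

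Genes for ligands of the BMP, GDF and activin family also differed between Stem and TGF-β. Of 25 BMP, GDF and activin ligand genes 12 were tested, and 3 rose and 5 fell, with a median of 0.41. These are 66.7% of those tested, beside 25.1% of all genes. *Inhbb*, the activin B subunit, had 7853, 5948 and 6802 normalized counts in the Stem libraries, 259, 243.4 and 264.6 in TGF-β, and 227.8, 249.7 and 285.3 in Both. It fell by 4.75 on the log2 scale from Stem to TGF-β (adjusted p = 3.19e-12 from edgeR's test). *Inhba*, the activin A subunit, had 13438, 13789 and 13685 in Stem, 6553, 6063 and 6512 in TGF-β, and 7757, 6869 and 7449 in Both. *Inhba* fell by 1.10 from Stem to TGF-β (adjusted p = 9.83e-10 from edgeR's test). Its log2 fold change from TGF-β to Both was 0.21 (adjusted p = 0.0214 from edgeR's test). Both subunits were thus highest in Stem, where *Fstl3* was lowest.

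The ratio of the summed levels of *Fst* and *Fstl3* to those of *Inhba* and *Inhbb* was 0.393, 0.592 and 0.484 in Stem, 3.62, 3.65 and 3.58 in TGF-β, and 2.64, 3.01 and 2.61 in Both. All groups were apart on this ratio of mRNA levels, and they stayed apart with the median transcript length, which gave 0.554 to 0.822 in Stem, 3.70 to 3.82 in TGF-β and 2.61 to 3.06 in Both. Protein was not measured.

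Of the BMP ligands, *Bmp4* had 5349, 4828 and 5473 normalized counts in the Stem libraries, 2016, 1733 and 1916 in TGF-β, and 2129, 2069 and 2030 in Both. *Bmp4* fell by 1.47 on the log2 scale from Stem to TGF-β (adjusted p = 4.64e-10 from edgeR's test), and its log2 fold change from TGF-β to Both was 0.14 (adjusted p = 0.192 from edgeR's test). *Bmp2* was low, at 34.6 to 56.5 normalized counts in the Stem libraries, 63.9 to 85.3 in TGF-β and 41.4 to 44.8 in Both, with log2 fold changes of 0.73 (adjusted p = 0.00378 from edgeR's test) and -0.79 (adjusted p = 0.0208 from edgeR's test). *Bmp3*, the closest relative of *Gdf10*, had 30.4, 80.4 and 40.0 normalized counts in Stem and fell by 2.38 with TGF-β1 (adjusted p = 1.36e-04 from edgeR's test), and no library of TGF-β or Both was above 11.4. *Gdf6* rose by 1.87 (adjusted p = 2.03e-11 from edgeR's test) and *Gdf15* by 2.61 (adjusted p = 1.65e-09 from edgeR's test), the latter with a log2 fold change of -0.81 from TGF-β to Both (adjusted p = 5.91e-04 from edgeR's test).

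Receptors and co-receptors had 12 genes tested of 14, of which 0 rose and 4 fell between Stem and TGF-β (median -0.55), and 9 of the 12 had an unadjusted p below 0.05. The 4 are 33.3% of the list, beside 25.1% of all genes tested in either direction and 14.5% as lower. The median of all genes was 0. At an unadjusted p below 0.05 the list lay near the background, since 76.5% of all genes reached it. Whether the list differs from the background in direction was not tested. *Tgfbr3*, the co-receptor betaglycan, had 23775, 22006 and 23819 normalized counts in the Stem libraries, 1634, 1557 and 1542 in TGF-β, and 2426, 2204 and 2472 in Both. It fell by 3.88 on the log2 scale (adjusted p = 1.40e-13 from edgeR's test) and had a value of 0.59 from TGF-β to Both (adjusted p = 6.78e-05 from edgeR's test), with Both between the other groups as for *Grem1* and *Gdf10*. *Acvr1b*, an activin type I receptor, fell by 1.64, and the BMP co-receptors *Rgma* and *Rgmb* fell by 1.26 and 1.15. Of 8 Smad genes tested 1 rose (*Smad7*, an inhibitory Smad, by 1.04) and 2 fell (*Smad3* by 1.61 and *Smad9* by 1.13). They make up 37.5% of the list, beside 25.1% of all genes tested, and the list median was -0.41.

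Of 11 BMP target genes 9 were tested between Stem and TGF-β, of which 4 fell (*Id1*, *Id2*, *Id4* and *Atoh8*) and 2 rose. Past the threshold were thus 66.7%, beside 25.1% of all genes tested, and the list median was -0.88. The 2 that rose were the homeobox genes *Dlx5*, by 1.33, and *Msx2*, by 1.00, which were named after their values were seen. *Msx2* lay right at the 2-fold minimum, with 15, 12 and 11 raw counts in Stem and 26, 33 and 21 in TGF-β. The share past the threshold rests in part on this gene. *Id1*, a usual readout of BMP signaling, had 1207, 1012 and 1128 normalized counts in the Stem libraries, 274.1, 212 and 240.2 in TGF-β, and 179.2, 156.9 and 198.4 in Both. *Id1* fell by 2.21 on the log2 scale with TGF-β1 (adjusted p = 1.54e-09 from edgeR's test), and its log2 fold change from TGF-β to Both was -0.44 (adjusted p = 0.0408 from edgeR's test). *Id2* fell by 3.28, *Id4* by 3.10 and *Atoh8* by 3.45 (adjusted p = 7.65e-11, 8.60e-09 and 1.49e-10 from edgeR's test). *Id3* had log2 fold changes of -0.88 from Stem to TGF-β and -0.25 from TGF-β to Both, under the 2-fold minimum in each.

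Of 8 TGF-β and activin target genes tested, 6 rose and 1 fell between Stem and TGF-β (median 1.90). That is 87.5%, beside 25.1% of all genes tested in either direction and 10.6% as higher. The list was made of targets of the factor that was added, so nothing is read from this share. *Col1a1*, a fibrillar collagen chain, rose by 3.08 on the log2 scale, *Pmepa1* by 2.90 and *Ccn2* by 2.21 (adjusted p = 1.48e-12, 3.03e-12 and 1.04e-09 from edgeR's test). *Tgfbi*, a matrix protein named for its induction by TGF-β, was the 1 that fell, by 1.81 (adjusted p = 2.39e-07 from edgeR's test). Of 5 genes tested for proteases that cleave chordin or pro-proteins of the family, 1 rose (*Pcsk5*, a proprotein convertase, by 1.51) and 0 fell (median 0.07), while 4 of the 5 had an unadjusted p below 0.05. Both counts were near the shares of all genes (25.1% past the threshold and 76.5% at an unadjusted p).

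**Figure D4:**
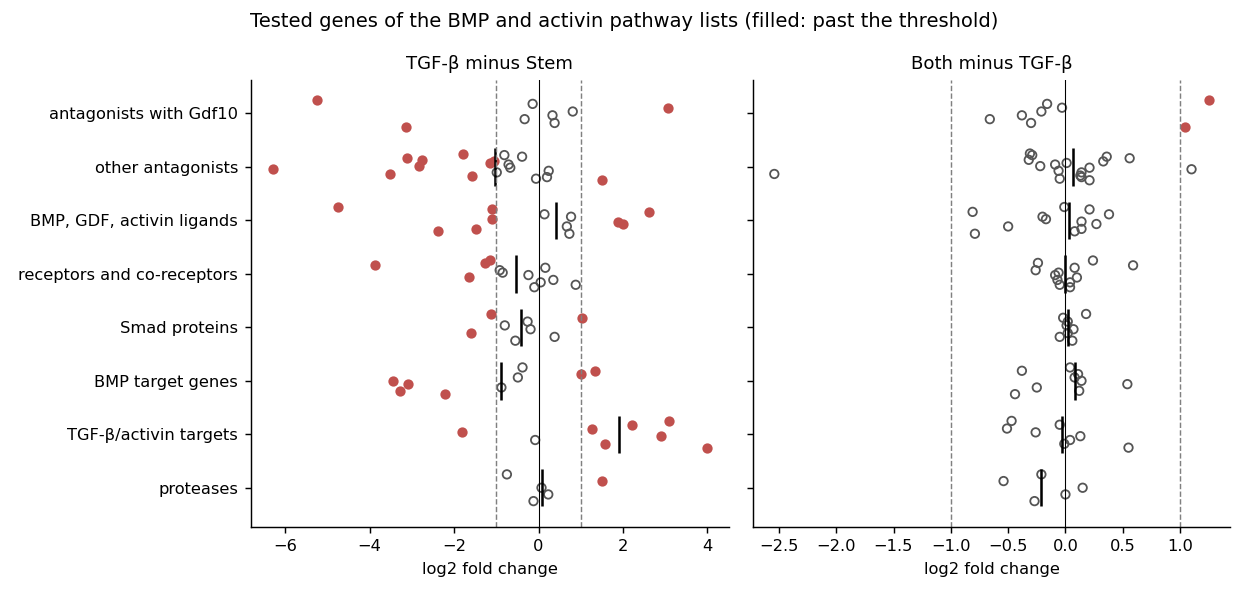
Log2 fold change of each tested gene of the 7 pathway lists and of the antagonists with *Gdf10*, from Stem to TGF-β and from TGF-β to Both, with 1 row per list, a point per gene (filled where past the threshold) and a vertical line for the median of each pathway list. Between Stem and TGF-β the medians run from -1.03 for the other antagonists to 1.90 for the TGF-β and activin targets, and between TGF-β and Both from -0.21 to 0.08.

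Over the 7 lists, 39 of the 72 genes tested passed the threshold between Stem and TGF-β, 14 higher and 25 lower, which is 54.2% beside 25.1% of all genes tested. Between TGF-β and Both, 0 of the 72 passed by edgeR and 0 by DESeq2, where 0.632% of all genes tested passed by edgeR. A count of 0 in 72 is near that share. Of the 72, 27 had an unadjusted p below 0.05, a larger share than the 24.1% of all genes tested. An adjusted p below 0.05 without the 2-fold minimum was reached by 7 that were higher and 10 that were lower. Together they were a larger share than the 8.92% of all genes tested. Whether *Grem1* and *Gdf10* differ from these genes in their difference between TGF-β and Both was not tested. Between Stem and Both, 35 of the 72 passed, 11 higher and 24 lower, which is 48.6% beside 22.8% of all genes tested, and 62 had an unadjusted p below 0.05, beside 75.1% of all genes.

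**Figure D5:**
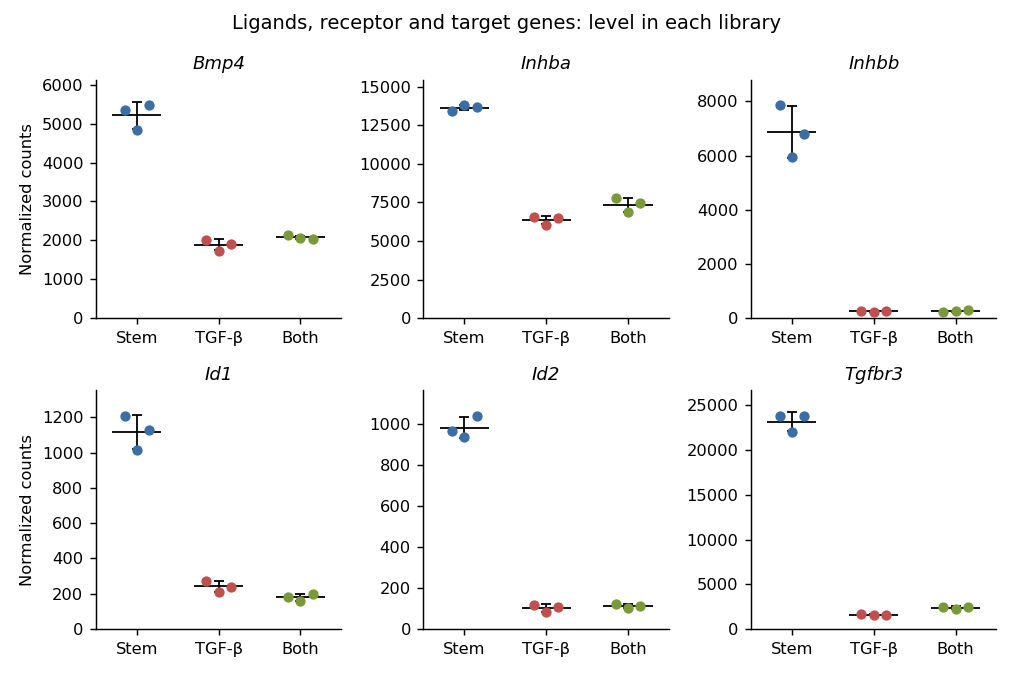
Normalized counts of *Bmp4*, *Inhba*, *Inhbb*, *Id1*, *Id2* and *Tgfbr3* in each library, on linear axes that start at 0, with points for libraries and lines for the mean and SD. All 6 genes are highest in Stem. *Tgfbr3*, *Inhba* and *Bmp4* are higher in every library of Both than in any of TGF-β.

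In a search over 10898 genes that reached a mean of 100 normalized counts, those with the pattern most like each gene over the 9 libraries were found by the root mean square difference in centred log2 CPM. For *Grem1* they were *Ptger4* (0.233), *Abcc9* (0.259) and *Plat* (0.269). *Ptger4* encodes a prostaglandin E2 receptor, *Abcc9* the sulfonylurea receptor of a potassium channel and *Plat* tissue plasminogen activator. For *Gdf10* they were *Gas1* (0.305), *Adm* (0.342) and *Slc14a1* (0.393), a hedgehog co-receptor, adrenomedullin and a urea transporter. For *Fstl3* they were *Pmepa1* (0.0852), *Bcat1* (0.0949) and *Spsb1* (0.107), so that the nearest gene to *Fstl3* is itself on the list of TGF-β and activin targets. The nearest genes to *Fstl1* were *Dennd4a* (0.04), *Anxa2* (0.0458) and *Arhgef6* (0.0464), at distances smaller than those of *Grem1* or *Gdf10*. For *Chrd*, *Fst* and *Bambi* the nearest were *Pgm5* (0.0591), *Rpl22l1* (0.0683) and *Zfat* (0.0781).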

How the data were processed

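RNA-Seq was measured in 9 libraries of AdvSca1-SM cells, 3 per group, from ribosome-depleted total RNA. The authors deposited raw counts per Ensembl gene, not normalized. The submitters' processing notes list HISAT2 2.2.1, SAMtools 1.13, HTSeq 0.11.3 and GRCm39, whereas the paper's methods name STAR for alignment, so the sources differ on the aligner. Neither the strand setting nor the handling of multi-mapped reads is given in the sources used here, which leaves genes with overlapping or near-identical partners uncertain. Library totals were 35686291 to 47741128 counts, and replicates of a group correlated across genes with a Spearman coefficient of at least 0.995. The floor of 3 counts covers counting error only, whereas the SDs and standard errors include the spread between cultures.

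The counts were fitted with edgeR 4.0.16 and limma 3.58.1, and DESeq2 1.42.0 served as an alternative, all under R 4.3.3. Of 55416 genes, 14879 passed filterByExpr, TMM factors ran from 0.967 to 1.08, and all 9 libraries entered 1 quasi-likelihood fit with group as the only term and Benjamini-Hochberg adjustment over all genes tested. Genes passed the threshold at an adjusted p of 0.05 and a 2-fold change. Normalized counts refer to the mean TMM-scaled library of 41184338 counts, and log2 fold changes used a prior count of 0.125. Transcript lengths came from GENCODE annotation of another build than that of the counts and were used for levels per length. Of 93 pathway symbols 92 were found directly and 1 through a RefSeq synonym. The pipeline was tested on simulated data. The 9 genes, the lists and the rules were chosen with earlier results of these data known. Named pathway genes were at most 4 per list with at least 100 mean normalized counts that passed the threshold, by size of the change between Stem and TGF-β, plus *Bmp2*, *Bmp3*, *Bmp4*, *Inhba* and *Id1* to *Id4*. *Tgfbi*, *Dlx5* and *Msx2* were named in addition, after their values were seen, because they moved against the rest of their lists. The alternatives were DESeq2, DESeq2 size factors, total counts, no filter, a mean of at least 10 counts, a prior count of 2, a fit of the 6 libraries of a comparison, a block for the replicate number, no 2-fold minimum, median transcript length and leaving out each library. Results for items withheld for evaluation are not reported here.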

Additional observations from a re-analysis of the deposited data

How the results depend on the processing

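Of 408 log2 fold changes of the 8 genes under alternatives, 404 stayed within 1 SD of the libraries, 4 moved and 0 reversed a called direction. The 4 were *Fstl1* (0.69 from Stem to TGF-β and 0.49 from Stem to Both) and *Fstl3* (2.95 and 2.93), all with total counts in place of TMM, which moved the median of all genes to -0.12 and -0.11 in these comparisons. The differences of *Chrd* and *Fst* between Stem and Both lay near 0 and changed sign between settings, *Chrd* from -0.03 to 0.19 and *Fst* from -0.16 to 0.10. Without the 2-fold minimum, 6, 4 and 6 of the antagonists with *Gdf10* and 62, 17 and 61 pathway genes passed between Stem and TGF-β, TGF-β and Both, and Stem and Both. Without the filter on low counts, 1 pathway gene passed between TGF-β and Both, *Bmp15*, which had 10, 5 and 7 raw counts in TGF-β and 1, 0 and 1 in Both. With 1 library left out, 3 to 3, 1 to 2 and 3 to 4 of the antagonists with *Gdf10* and 38 to 40, 0 to 0 and 35 to 37 pathway genes passed. The fourth between Stem and Both was *Chrdl1*, without Stem replicate 1, Both replicate 2 or Both replicate 3, and it also passed with total counts and with a mean of at least 10 counts. Correlations of deviations between libraries with the same replicate number ran from -0.05 to 0.20, and between libraries with different numbers from -0.18 to 0.17. In each comparison the highest was that of replicate 2 with replicate 2, at 0.17, 0.14 and 0.20. Whether libraries with the same number share an origin was not tested. With the replicate block, 3, 2 and 3 of the antagonists with *Gdf10* and 38, 0 and 35 pathway genes passed, and over all genes 3736, 120 and 3394 passed in place of 3739, 94 and 3385. Depth limits *Nog*, which was not tested, and low-count genes such as *Bmp2*, *Bmp3*, *Msx2* and *Chrdl1*.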
